A study of Saccharomyces cerevisiae with 12 samples.

Results

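The genes described here code for the enzymes that make polyamines in Saccharomyces cerevisiae and for the transporters that move them out of the cytosol. They are 9 of the 6600 annotated features of the count table, taken by name: SPE1, SPE2, SPE3, SPE4 and FMS1 for synthesis and turnover, and TPO1, TPO2, TPO4 and TPO5 for transport. TPO2 was chosen by its large rise in the normalized counts of these libraries, so its values are given as a description without a test, and counts of responding genes are over the other 8. The study grew the haploid laboratory strain BY4741 in continuous presence of PeAfpA, an antifungal protein of the mould Penicillium expansum, at 1, 2 or 4 µg/mL, and in absence of it (control). Every culture was kept for 20 h at 30 °C in flasks of 10 mL of 5% YPD, a rich medium with glucose, and each of the 4 conditions had 3 replicate flasks. All cultures share the BY4741 deletions of HIS3, LEU2, MET17 and URA3, and the polyadenylated RNA of each flask gave 1 library, so 12 libraries in all. The question of each comparison was which of these genes respond to PeAfpA at each concentration.

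Putrescine, spermidine and spermine are small cations that bind nucleic acids and are needed for growth, and spermidine is also the donor for the hypusine residue of the translation factor eIF5A. Spe1 makes putrescine from ornithine, Spe2 makes the aminopropyl donor from S-adenosylmethionine, and Spe3 and Spe4 add aminopropyl groups to give spermidine and then spermine. Fms1 oxidises spermine back to spermidine and yields the precursor of beta-alanine and pantothenate. Tpo1, Tpo2 and Tpo4 are proton antiporters of the plasma membrane that belong to the DHA1 drug exporter family, and Tpo5 works in the secretory pathway. In a growing yeast culture, surplus polyamine is kept in check by feedback on Spe1 and by export.

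Library totals lay between 7153797 and 10270183 counts, and 5903 genes with a mean of at least 1 TPM (transcript level per length, scaled to the same sum in each library) over the 12 libraries were tested, all 9 polyamine genes among them. Of the deleted genes, LEU2, URA3 and MET17 had 0 counts throughout, and HIS3, only partly deleted, had 381 to 649. A library of 1 µg/mL, replicate 1, stood apart from the other replicates of its condition, and results that rest on it are given with and without it. Cultures also differed in their carbon state: the summed level of 8 glucose-repressed genes (ADH2, ICL1, MLS1, FBP1, PCK1, JEN1, ACS1 and ADY2) was 13009 to 16628 TPM in the controls, 12778 to 16725 TPM at 1 µg/mL, 5244 to 16020 TPM at 2 µg/mL and 104 to 694 TPM at 4 µg/mL. None of the 8 was at 0 in any library, and the part of this shift in the changes described here was not tested. Libraries hold the RNA of whole cultures, so a change in every cell and a larger change in some of the cells cannot be told apart.

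At 4 µg/mL against control, SPE4 was upregulated, FMS1 and TPO1 were downregulated, and SPE1, SPE2, SPE3, TPO4 and TPO5 did not pass the test. A differentially expressed gene (DEG) has an edgeR quasi-likelihood p, adjusted by Benjamini-Hochberg over the 5903 genes, under 0.05. The 3 DEGs of 8 stand beside 42.3% of all genes tested that were DEGs in this comparison. In normalized counts, the libraries of 4 µg/mL and control did not overlap for 6 of the 8 genes, beside 59.1% of all genes. The median log2 fold change of the 8 was 0.16, and that of all genes was -0.04. Their median size regardless of sign was 0.39, against 0.45 over all genes. TPO2 stood far outside this range, at 26.3-fold.

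**Figure D1:**
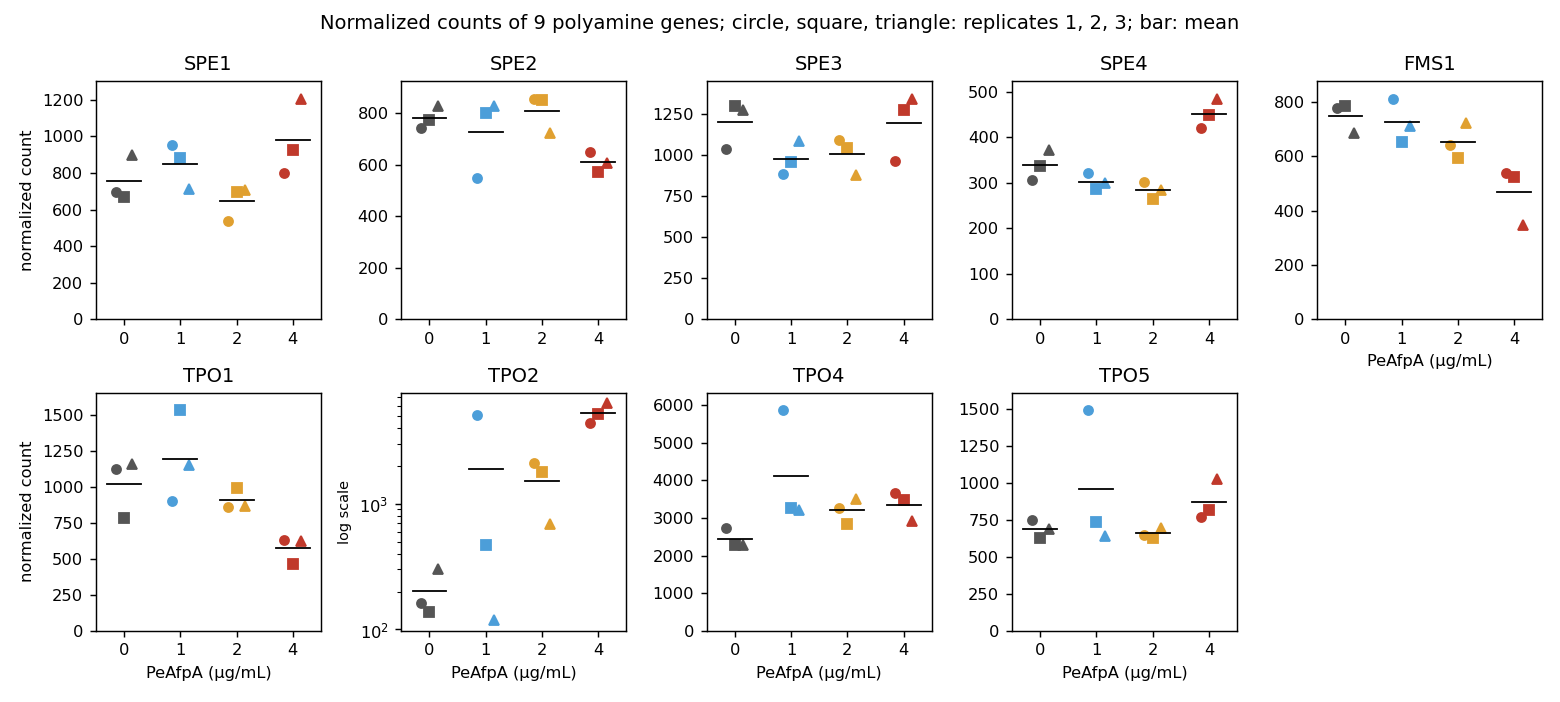
Normalized counts of the 9 genes (y axis, counts scaled to a common library size, logarithmic for TPO2 only) at 0, 1, 2 and 4 µg/mL PeAfpA (x axis). Each point is a library, with circles, squares and triangles for replicates 1, 2 and 3, and bars are means. TPO2 at 4 µg/mL lies between 4354 and 6264, and its controls lie between 137 and 303. FMS1 and TPO1 are lower at 4 µg/mL than in any control, while the circle of 1 µg/mL is the highest library of TPO4 and TPO5.

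SPE1 (YKL184W, R64 chromosome XI, 96757 to 98157, plus strand) codes for ornithine decarboxylase, the first enzyme of the pathway. Each of the 9 genes is a coding sequence without an intron in the R64 annotation. SPE1 had 697, 669 and 896 normalized counts in control cultures, 951, 880.5 and 711 at 1 µg/mL, 538, 694 and 707 at 2 µg/mL, and 801, 928 and 1207 at 4 µg/mL. The cultures of 4 µg/mL and control overlapped in 1 pair of values, 801 against 896. Means were 979 ± 208 at 4 µg/mL and 754 ± 124 in control (SD, n = 3 each), and the log2 fold change of 0.38 (SE 0.18) did not pass the test (adjusted p = 0.119, 95% interval -0.03 to 0.78).

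SPE2 (YOL052C, chromosome XV, 232446 to 233636, minus strand) codes for S-adenosylmethionine decarboxylase. Its normalized counts were 743, 774 and 827 in control, 549.8, 801 and 829 at 1 µg/mL, 856, 849 and 722 at 2 µg/mL, and 648, 572 and 608 at 4 µg/mL. Every library of 4 µg/mL lay below every control. The log2 fold change was -0.36 (SE 0.15), and its adjusted p of 0.0785 missed the threshold in the fit of 12 libraries. Without replicate 1 of 1 µg/mL, in which SPE2 had its lowest value of all, the log2 fold change was -0.35 and it was a DEG.

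SPE3 (YPR069C, chromosome XVI, 684556 to 685437, minus strand) codes for spermidine synthase and had the highest mean level per length of the 9 genes in control. It had 1036, 1300.4 and 1274 normalized counts in control, 882, 959.8 and 1088 at 1 µg/mL, 1095, 1045 and 878 at 2 µg/mL, and 967, 1277 and 1344 at 4 µg/mL. The range of 4 µg/mL enclosed that of control. The log2 fold change was -0.01, with a 95% interval of -0.35 to 0.33 (adjusted p = 0.967).

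SPE4 (YLR146C, chromosome XII, 432823 to 433725, minus strand) codes for spermine synthase. It had 306, 337 and 373 normalized counts in control, 322, 287 and 299 at 1 µg/mL, 302, 265 and 283 at 2 µg/mL, and 419.7, 448 and 485 at 4 µg/mL. The libraries of 4 µg/mL were above all others, and those of 2 µg/mL were below all controls. Means were 451 ± 32.9 at 4 µg/mL and 339 ± 33.2 in control (SD, n = 3 each), a log2 fold change of 0.41 (SE 0.13, adjusted p = 0.0263). The call was lost with library size as the only scaling, where the log2 fold change was 0.21 (adjusted p = 0.297), and without control replicate 1 or 2 or replicate 2 or 3 of 4 µg/mL (adjusted p = 0.0942, 0.0624, 0.0651 and 0.0762, in that order).

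FMS1 (YMR020W, chromosome XIII, 315377 to 316903, plus strand) codes for the polyamine oxidase that turns spermine back to spermidine. It had 778, 784 and 687 normalized counts in control, 812, 654 and 712 at 1 µg/mL, 640.3, 595 and 724 at 2 µg/mL, and 538, 524 and 348 at 4 µg/mL. All 3 libraries of 4 µg/mL lay below all 9 others, and replicate 3 was the lowest. Means were 469.9 ± 105 at 4 µg/mL and 749.9 ± 54.1 in control (SD, n = 3 each). FMS1 fell by 0.67 on the log2 scale (SE 0.17, adjusted p = 0.00843).

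The gene of the enzyme that adds the last aminopropyl group and that of the enzyme that removes it moved in opposite directions. This held in normalized counts at 4 µg/mL against control. In TPM the SPE4 libraries of these groups overlapped, at 38.4 to 46.0 against 36.9 to 47.4 in control. The mean TPM at 4 µg/mL over that of control was 1.07 for SPE4 and 0.52 for FMS1. The ratio of SPE4 to FMS1, in TPM and so per length, was 1.32, 1.45 and 2.36 at 4 µg/mL, against 0.666, 0.728 and 0.917 in control. At 1 and 2 µg/mL it was 0.661 to 0.796. The ratio was above 1 in the libraries of 4 µg/mL and below 1 in the other 9.

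TPO1 (YLL028W, chromosome XII, 84804 to 86564, plus strand) codes for a plasma membrane exporter of polyamines. It had 1121, 784 and 1162 normalized counts in control, 905, 1532 and 1149 at 1 µg/mL, 858, 995 and 864 at 2 µg/mL, and 630.4, 466 and 621 at 4 µg/mL. All libraries of 4 µg/mL were below all other libraries, of which control replicate 2 was the nearest. Means were 572 ± 92.2 at 4 µg/mL and 1022 ± 207 in control (SD, n = 3 each). TPO1 fell by 0.84 on the log2 scale (SE 0.21, adjusted p = 0.00831), and together with FMS1 it remained a DEG of this comparison under all 21 alternatives tried.

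TPO2 (YGR138C, chromosome VII, 763762 to 765606, minus strand) codes for an exporter that acts on spermine. TPO2 had 162, 137 and 303 normalized counts in control, 5077, 468 and 119 at 1 µg/mL, 2103, 1799 and 685 at 2 µg/mL, and 4354, 5190.3 and 6264 at 4 µg/mL. All libraries of 2 and of 4 µg/mL were above all controls, and those of 1 µg/mL were spread over the whole range. Means were 5269.6 ± 957 at 4 µg/mL and 200.4 ± 89.5 in control (SD, n = 3 each), a log2 fold change of 4.71 (SE 1.06). At 2 µg/mL the log2 fold change over control was 2.93 (SE 0.98). At 1 µg/mL it was 3.23 (SE 0.99) with all libraries and 0.56 without replicate 1, which alone had 17.3 times the mean of the other replicates of its condition.

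Of all windows of 75 bases, the length of the reads, in the TPO2 coding sequence, 551 of 1771 (31.1%) occur elsewhere in the genome, against 0 in the other 8 genes. The study describes its mapped reads as uniquely mapped, but the rule by which reads that match several places were dropped or counted is not given in the sources used here, so part of the signal of TPO2 may be left out or come from elsewhere, and its values are uncertain to that extent.

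The coding sequences of TPO1, TPO2, TPO4 and TPO5 were identical at 51.1% to 57.1% of aligned bases over their 6 pairs, and the 250 bases before their start codons at 45.7% to 55.3%. TPO2 and TPO4 were the pair least alike before the start codon. The bases from 250 to 51 before it are shown for these genes, of which TPO2 had the highest level per length at 4 µg/mL and TPO4 at 1 and 2 µg/mL. Both are on the minus strand of R64, TPO2 at chrVII:765657-765856 and TPO4 at chrXV:836482-836681, and capitals mark a match to the motifs described next.

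TPO2 upstream: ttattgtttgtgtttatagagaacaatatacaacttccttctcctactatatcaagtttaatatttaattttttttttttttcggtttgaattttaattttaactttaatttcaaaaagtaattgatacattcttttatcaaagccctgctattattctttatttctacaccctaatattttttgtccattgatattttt
TPO4 upstream: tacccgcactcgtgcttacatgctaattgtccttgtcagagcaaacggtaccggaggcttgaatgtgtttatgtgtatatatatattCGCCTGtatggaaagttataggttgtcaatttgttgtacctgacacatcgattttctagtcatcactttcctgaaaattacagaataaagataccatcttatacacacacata

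In windows from 250 bases before to 50 after the start codon of 5916 genes, 4 motifs were searched on both strands. The core bound by Haa1, the factor known to activate TPO2 under weak acid, was searched as GAGGGG and its variants with C as the first, the second or the fifth letter, and 24.7% of windows held a match. Of the 9 polyamine genes only TPO4 held one, at position -163. The stress response element AGGGG, which lies within some of these hexamers, was in 21.9% of windows and the pleiotropic drug response element TCCGNGGA in 1.22%, and neither matched in a polyamine gene. The Gcn4 site TGACTC was in 8.1% of windows and matched in TPO1 alone, at position -183. Bases farther upstream were not searched, so a gene without a match here may hold one there.

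TPO4 (YOR273C, chromosome XV, 834452 to 836431, minus strand) codes for another plasma membrane exporter of this family. It had 2726, 2278 and 2289 normalized counts in control, 5862, 3256 and 3209 at 1 µg/mL, 3262, 2826 and 3515 at 2 µg/mL, and 3666, 3474 and 2907 at 4 µg/mL. In normalized counts every treated library was above every control, but in TPM this did not hold. Replicate 3 of 4 µg/mL had 105 TPM, below the lowest control at 114 TPM. Replicate 2 of 2 µg/mL had 149 TPM, against 149.9 TPM in control replicate 1. The log2 fold change at 4 µg/mL was 0.46 (SE 0.23, adjusted p = 0.123), with a 95% interval of -0.04 to 0.96, and without replicate 1 of 1 µg/mL it was 0.47 and a DEG.

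TPO5 (YKL174C, chromosome XI, 120380 to 122236, minus strand) codes for a polyamine excretion protein of Golgi or later vesicles. It had 748, 626 and 692 normalized counts in control, 1492, 739 and 642 at 1 µg/mL, 650.4, 630.3 and 698 at 2 µg/mL, and 770.3, 817 and 1024 at 4 µg/mL. The libraries of 4 µg/mL were above the controls, by as little as 770.3 against 748, and replicate 1 of 1 µg/mL was the highest of all. The log2 fold change was 0.34 (SE 0.25, adjusted p = 0.299, 95% interval -0.21 to 0.89), and without that library it was 0.35 and a DEG.

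The count of DEGs among the 8 genes at 4 µg/mL depended on single libraries. It was 6 without replicate 1 of 1 µg/mL, with SPE2, TPO4 and TPO5 added, and 2, FMS1 and TPO1, without control replicate 1 or 2 or without replicate 2 or 3 of 4 µg/mL. Calls over all genes moved with the same libraries: they were 47.1% without replicate 1 of 1 µg/mL and 25.3% to 34.0% in the settings with 2, against 42.3% with all libraries.

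**Figure D2:**
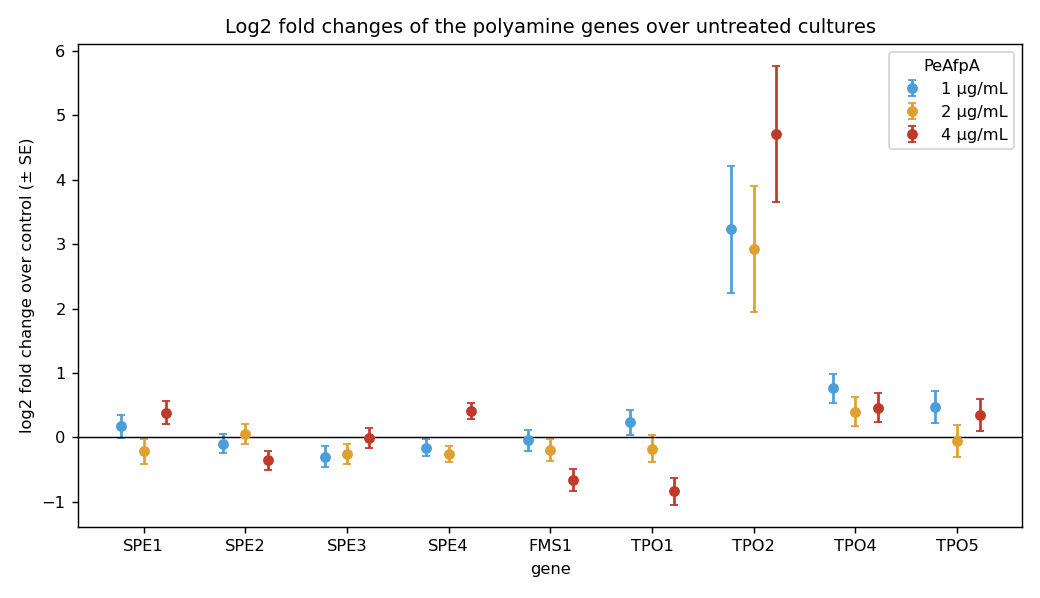
Log2 fold change over control (y axis) of each of the 9 genes (x axis) at 1, 2 and 4 µg/mL, with bars of 1 SE from the fit of 12 libraries. TPO2 lies at 3.23, 2.93 and 4.71, the other 8 genes lie between -0.84 and 0.76, and the bars of TPO2 are the longest.

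Levels per length were compared in TPM. In control cultures SPE3 (147 ± 19 TPM, SD, n = 3) and TPO4 (132 ± 17.8 TPM) overlapped at the top, apart from the rest, and SPE2, TPO1, SPE1 and FMS1 overlapped from one to the next between 70.8 and 52.8 TPM. SPE4 and TPO5 overlapped at 40.5 and 40.1 TPM, and TPO2 was last and apart at 11.9 ± 6.1 TPM. That level of TPO2 stood at percentile 8.2 of the genes tested.

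At 4 µg/mL this order had TPO2 first at 244 ± 15.4 TPM (SD, n = 3), percentile 84.9 of the genes tested and above the range of TPO4, at 149 ± 39.4 TPM. SPE3 followed at 117 TPM, overlapping TPO4. SPE1 stood apart at 59.5 TPM, and SPE2, SPE4 and TPO5 had 44.7, 43.2 and 40.2 TPM. TPO1 and FMS1 were last, at 28.2 ± 5.79 and 27.5 ± 9.74 TPM. At 1 and 2 µg/mL TPO4 had the highest mean, apart from SPE3, the next gene, and SPE4 had the lowest. The place of TPO2 at 1 µg/mL rests on replicate 1, with 218, 26.1 and 6.51 TPM in replicates 1, 2 and 3. In replicates 2 and 3 TPO2 was below SPE4, which had 28.2, 32.7 and 33.5 TPM.

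The make-up of the exporter transcripts also differed. Of the summed TPM of TPO1, TPO2, TPO4 and TPO5, TPO2 made 47.3%, 53.4% and 58.9% at 4 µg/mL, against 3.51%, 3.69% and 6.98% in control. TPO1 made 7.18%, 5.02% and 6.11% of it at 4 µg/mL, against 25.4%, 22.2% and 28.1% in control. TPO2 itself is in that sum. Of the sum without TPO2, TPO1 made 13.6%, 10.8% and 14.9% at 4 µg/mL, against 26.3%, 23.0% and 30.2% in control.

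The summed level of these 4 genes was 485, 488 and 412 TPM at 4 µg/mL, against 273, 199.6 and 270.2 TPM in control. Without TPO2 the sums were 256, 228 and 169 TPM at 4 µg/mL and 263, 192 and 251 TPM in control, and these ranges overlapped. The 5 genes of synthesis and turnover summed to 295, 318 and 262 TPM at 4 µg/mL, against 342, 347 and 418 TPM in control, without overlap. At 1 and 2 µg/mL these sums, between 239.8 and 328 TPM, were below all controls too. In normalized counts they were 3373, 3749 and 3994 at 4 µg/mL and 3561, 3865 and 4056 in control, and overlapped. TPM shares are relative to all transcripts of a library, so a sum can move with other genes.

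**Figure D3:**
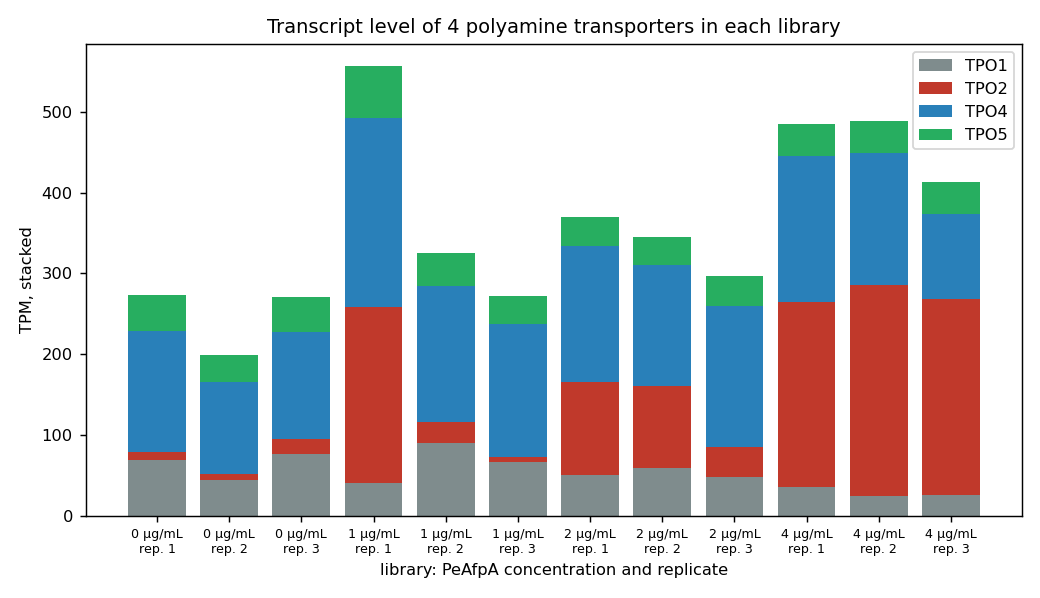
Stacked level in TPM (y axis) of TPO1, TPO2, TPO4 and TPO5 in each of the 12 libraries (x axis, concentration and replicate). TPO2, a thin band in the controls, takes 47.3% to 58.9% of the bars at 4 µg/mL and 39.1% of the bar of replicate 1 at 1 µg/mL, and the TPO1 band is thinnest at 4 µg/mL and in that same library among those of 1 µg/mL.

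At 2 µg/mL none of the 8 genes was a DEG by edgeR, as was true of all 5903 genes tested (0%), of which 572 (9.69%) had an unadjusted p under 0.05. None of the 8 genes was among these 572. DESeq2 called 34 genes (0.576%) and none of the 8. The number of all genes called depended on the fit and on 1 library. It was 132 (2.24%) by edgeR without replicate 3 of 2 µg/mL, 228 (3.86%) by DESeq2 with the 2 groups only and 1279 (21.7%) by limma-voom. None of the 8 was called in these settings. Libraries of 2 µg/mL and control did not overlap for 2 of the 8, beside 17.9% of all genes: TPO4 had a log2 fold change of 0.40 (adjusted p = 0.567) and SPE4 of -0.26 (adjusted p = 0.54).

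At 1 µg/mL edgeR again called 0 of the 8 genes and 0% of all genes, with 536 (9.08%) at an unadjusted p under 0.05. TPO4 (unadjusted p = 0.00626, log2 fold change 0.76, SE 0.23) was among these 536, with an edgeR adjusted p of 0.491. All 3 of its libraries were above all controls, and groups did not overlap for 1 of the 8 genes, beside 16.0% of all genes. DESeq2 called 14 genes (0.237%), TPO4 among them (DESeq2 adjusted p = 0.0467). The rest of the 8 had no DESeq2 adjusted p in that fit and so could not be called. TPO4 was not called by DESeq2 fitted to the 2 groups only (DESeq2 adjusted p = 0.362) or by limma-voom (limma adjusted p = 0.138). Without replicate 1 of 1 µg/mL the log2 fold change of TPO4 was 0.42 (edgeR adjusted p = 0.991). Replicate 1 of 1 µg/mL had 1.81 times the mean of the other replicates for TPO4. It was the highest of the 12 libraries for FMS1, TPO4 and TPO5 and the lowest for SPE2.

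Between the treated conditions, 4 of the 8 genes were DEGs at 4 against 2 µg/mL, where 34.2% of all genes were. SPE4 and SPE1 were upregulated, with log2 fold changes of 0.67 (SE 0.13, adjusted p = 0.00492) and 0.60 (SE 0.19, adjusted p = 0.0283). TPO1 and FMS1 were downregulated, with -0.66 (SE 0.21, adjusted p = 0.029) and -0.47 (SE 0.17, adjusted p = 0.0447). The libraries did not overlap for 6 of the 8, beside 52.4% of all genes. The count of DEGs was 1 (SPE4) without replicate 1 or 2 of 2 µg/mL or replicate 3 of 4 µg/mL, 2 without replicate 2 of 4 µg/mL, and 6 without replicate 1 of 1 µg/mL. Over all genes the calls were 15.4% to 19.6% in the settings with 1, 24.9% in that with 2 and 42.1% in that with 6. The call of FMS1 was lost under most alternatives, and that of SPE1 with library size as the only scaling (log2 fold change 0.44). TPO2 had a log2 fold change of 1.79 (SE 0.93) between these conditions.

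At 4 against 1 µg/mL, 3 of the 8 were DEGs, beside 26.4% of all genes. SPE4 was upregulated by 0.58 (SE 0.13, adjusted p = 0.0106), FMS1 fell by 0.62 (SE 0.17, adjusted p = 0.0184) and TPO1 fell by 1.06 (SE 0.21, adjusted p = 0.00424), all on the log2 scale. The call of SPE4 was lost without replicate 2 of 1 µg/mL (0.54), and that of FMS1 without replicate 3 of 1 µg/mL (-0.64) or of 4 µg/mL (-0.44). Without replicate 1 of 1 µg/mL the count was 4, with SPE2 added, and 42.8% of all genes were DEGs. TPO2 had a log2 fold change of 1.48 (SE 0.92) with all libraries and 4.16 without replicate 1 of 1 µg/mL. Comparisons of 4 µg/mL share their treated libraries and are not independent of each other.

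As a slope over 0, 1, 2 and 4 µg/mL, 2 of the 8 genes passed the test, beside 37.7% of all genes. The slope of FMS1 was -0.17 per µg/mL (SE 0.04, adjusted p = 0.00676) and that of TPO1 was -0.24 (SE 0.06, adjusted p = 0.00882), on the log2 scale. Neither gene was a DEG at 1 or 2 µg/mL against control, so a slope does not show a graded fall. From 0 to 4 µg/mL, mean normalized counts were 749.9, 726, 653 and 469.9 for FMS1. For TPO1 they were 1022, 1195, 906 and 572. SPE4 had a slope of 0.11 (SE 0.04, adjusted p = 0.0535), with means of 303 and 283 normalized counts at 1 and 2 µg/mL and 339 in control. The count was 5 without replicate 1 of 1 µg/mL, where 46.3% of all genes passed.

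TPO2, whose own values chose it, and the carbon state are given side by side, and the part of one in the other was not tested. At 4 µg/mL, where TPO2 had 4354, 5190.3 and 6264 normalized counts, the 8 glucose-repressed genes summed to 694, 289 and 104 TPM. In replicate 1 of 1 µg/mL TPO2 had 5077 normalized counts and these genes summed to 12778 TPM, close to the lowest control at 13009. The genes in this sum went both ways there. ADY2 (1763 normalized counts), MLS1 (24469) and ACS1 (13460.1) were below all controls. ICL1 (65971), FBP1 (21703), PCK1 (61452) and JEN1 (28249.9) were above all controls, and ADH2 (26882) was within their range. At 2 µg/mL replicates 1 and 2 had TPO2 at 2103 and 1799 with sums of 5244 and 8712 TPM, and replicate 3 had 685 with 16020 TPM. In replicate 1 of 1 µg/mL SPE4 (322) and TPO1 (905) were within the control range, and FMS1 (812) was above it.

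**Figure D4:**
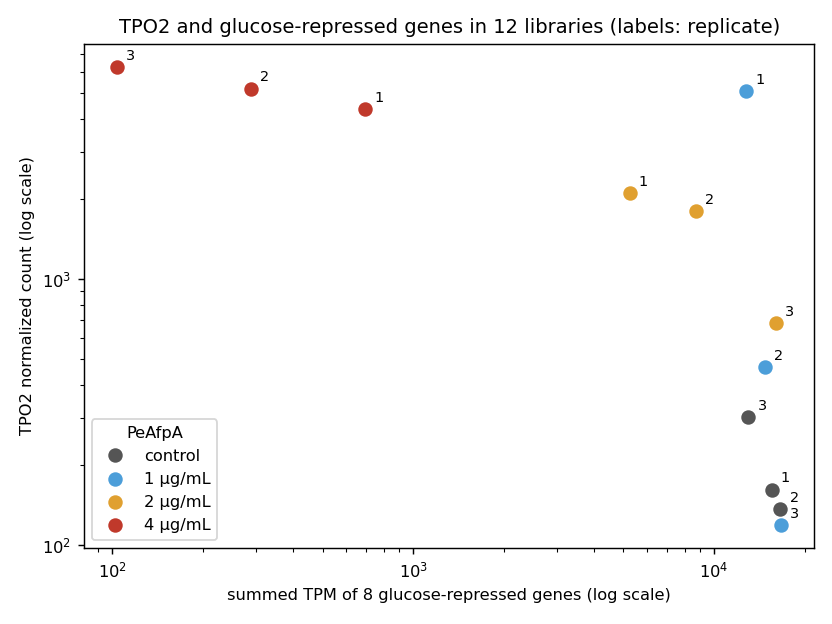
Normalized count of TPO2 (y axis, logarithmic) against the summed TPM of 8 glucose-repressed genes (x axis, logarithmic) in the 12 libraries, coloured by condition and labelled by replicate. The libraries of 4 µg/mL lie at the upper left, with sums of 104 to 694 TPM, and replicate 1 of 1 µg/mL lies at the upper right with 5077 counts and 12778 TPM.

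Patterns were compared as the root mean square difference of log2 values over the 12 libraries, each gene set to its control mean. The genes nearest to TPO2 were YPS3, a yapsin protease of the cell surface (0.74), MNC1, a small membrane protein (0.87), and the cell wall proteins NCW2 (0.89), SCW10 (0.93) and SRL1 (1.02), where the median of all genes was 3.20. Being chosen for this likeness, they share the high value of TPO2 in replicate 1 of 1 µg/mL: YPS3 had 3636 normalized counts there, with means of 6956 at 4 µg/mL and 322 in control. NCW2 had 11423 there, with means of 12457 at 4 µg/mL and 526 in control. Of the polyamine genes TPO4 was the nearest to TPO2, at 2.75.

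The other genes of polyamine biology were described in 6 lists, of which the supply of precursors came first. Of 14 genes, 3 were upregulated and 4 downregulated at 4 µg/mL, where 19.3% and 23.0% of all genes were, and the median log2 fold change was 0.42. This median was 0.00 without replicate 3 of 4 µg/mL, 0.16 with library size as the only scaling and 0.01 with limma-voom. The S-adenosylmethionine synthetase genes SAM2 (2.13, SE 0.51, adjusted p = 0.00714) and SAM1 (1.90, SE 0.63, adjusted p = 0.0289) and MRI1 of the methionine salvage cycle (1.03, SE 0.25, adjusted p = 0.00836) were upregulated on the log2 scale. SAM2 had means of 3061 ± 1687 normalized counts at 4 µg/mL and 698 ± 62.6 in control (SD, n = 3 each), and its libraries did not overlap. ARG8, a mitochondrial enzyme of ornithine synthesis, fell by 0.87 (SE 0.14, adjusted p = 0.00112), and the salvage genes ADI1 and UTR4 fell by 0.73 and 0.65. The upregulated count was 5 without replicate 1 or 3 of 2 µg/mL. It was 2 without control replicate 1 or 2 or replicate 3 of 4 µg/mL. The downregulated count was 2 without any 1 control or replicate 3 of 4 µg/mL.

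Among 11 genes of polyamine use and control or of pantothenate synthesis, 6 were upregulated and 1 downregulated, beside 19.3% and 23.0% of all genes. The pantothenate genes in this list were PAN5, PAN6 and ECM31. The median log2 fold change was 0.64, or 0.39 without replicate 3 of 4 µg/mL. PAN6 and PAN5 of pantothenate synthesis were upregulated by 1.65 (SE 0.22, adjusted p = 0.000379) and 0.80 (SE 0.20, adjusted p = 0.00836) on the log2 scale. The tandem genes ALD3 and ALD2, whose enzymes turn the aldehyde released by Fms1 into beta-alanine, moved apart: ALD3 rose by 1.04 (SE 0.30, adjusted p = 0.0173) and ALD2 fell by 1.05 (SE 0.21, adjusted p = 0.00316). OAZ1, the antizyme that sends Spe1 to degradation, had 469, 513 and 1006 normalized counts at 4 µg/mL, against 422, 294 and 268 in control, with a log2 fold change of 1.01 and an adjusted p of 0.0522. The upregulated count was 3 without replicate 3 of 4 µg/mL. ALD2 and ALD3, and likewise SAM1 and SAM2, are close copies, and their shared reads were not examined.

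Of 9 genes of polyamine uptake and its kinases, 0 were upregulated and 5 downregulated, beside 19.3% and 23.0% of all genes. The median log2 fold change was -0.92. It was -0.51 without replicate 3 and -1.43 without replicate 1 of 4 µg/mL. AGP2, a plasma membrane protein that controls polyamine and carnitine uptake, had 211, 169 and 136 normalized counts at 4 µg/mL, against 1081, 1023 and 1432 in control. It fell by 2.77 on the log2 scale (SE 0.36, adjusted p = 0.000333). SAM3, a permease for S-adenosylmethionine and polyamines, fell by 1.71 (SE 0.24, adjusted p = 0.000551), and the kinase gene PTK1 fell by 1.55 (SE 0.27, adjusted p = 0.00177). HOL1, a polyamine importer, fell by 0.47 (SE 0.15, adjusted p = 0.0234). The downregulated count was 3 without control replicate 3 or without replicate 2 or 3 of 4 µg/mL. Against 2 µg/mL, 8 of the 9 were lower at 4 µg/mL, beside 18.8% of all genes, with a median log2 fold change of -1.89. This comparison includes high values of DUR3, GAP1 and UGA4 at 2 µg/mL. Their means there were 4854, 35899.5 and 3945 normalized counts, against 627, 18962 and 351 in control. None of these genes passed the test at 4 µg/mL against control.

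In the DHA1 family, to which TPO1, TPO2 and TPO4 belong, 7 of 8 further genes were tested, with 1 upregulated and 4 downregulated. Of all genes, 19.3% and 23.0% were. HOL1, already counted as downregulated in the uptake list, is also 1 of these 4. QDR2 rose by 2.74 on the log2 scale (SE 0.38, adjusted p = 0.000491), with means of 1509.9 ± 318 normalized counts at 4 µg/mL and 226 ± 10.2 in control (SD, n = 3 each). Its tandem neighbour QDR1 fell by 1.34, and YHK8 and FLR1 fell by 2.26 and 1.07, with adjusted p between 0.00266 and 0.00603. YHK8 had only 5.38 to 11.4 normalized counts at 4 µg/mL. The upregulated count was 2 without control replicate 1.

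HAA1 and PDR1, transcription factors known to activate exporters of this family, did not pass the test. HAA1 had a log2 fold change of -0.35 (SE 0.19, adjusted p = 0.155). Of HAA1 and 7 further genes known as its targets, GPG1 rose by 0.88 (adjusted p = 0.00969) and GRE1 fell by 2.51 (adjusted p = 0.00406), and the median of the 8 was 0.05, with values from -0.11 (library size as the only scaling) to 0.26 (without replicate 3 of 4 µg/mL) over the alternatives. PDR1, which activates TPO1 and other drug exporters, had a log2 fold change of -0.19 (SE 0.18, adjusted p = 0.394). Of its network of 10 genes, PDR5 (1.73) and IPT1 (0.90) were upregulated and PDR10 (-2.04), PDR15 (-1.44) and PDR3 (-0.54) were downregulated, with adjusted p between 0.000702 and 0.0267. The upregulated count there was 1 without control replicate 2 or 3 or replicate 3 of 4 µg/mL. For both lists, the shares over all genes were 19.3% upregulated and 23.0% downregulated.

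**Figure D5:**
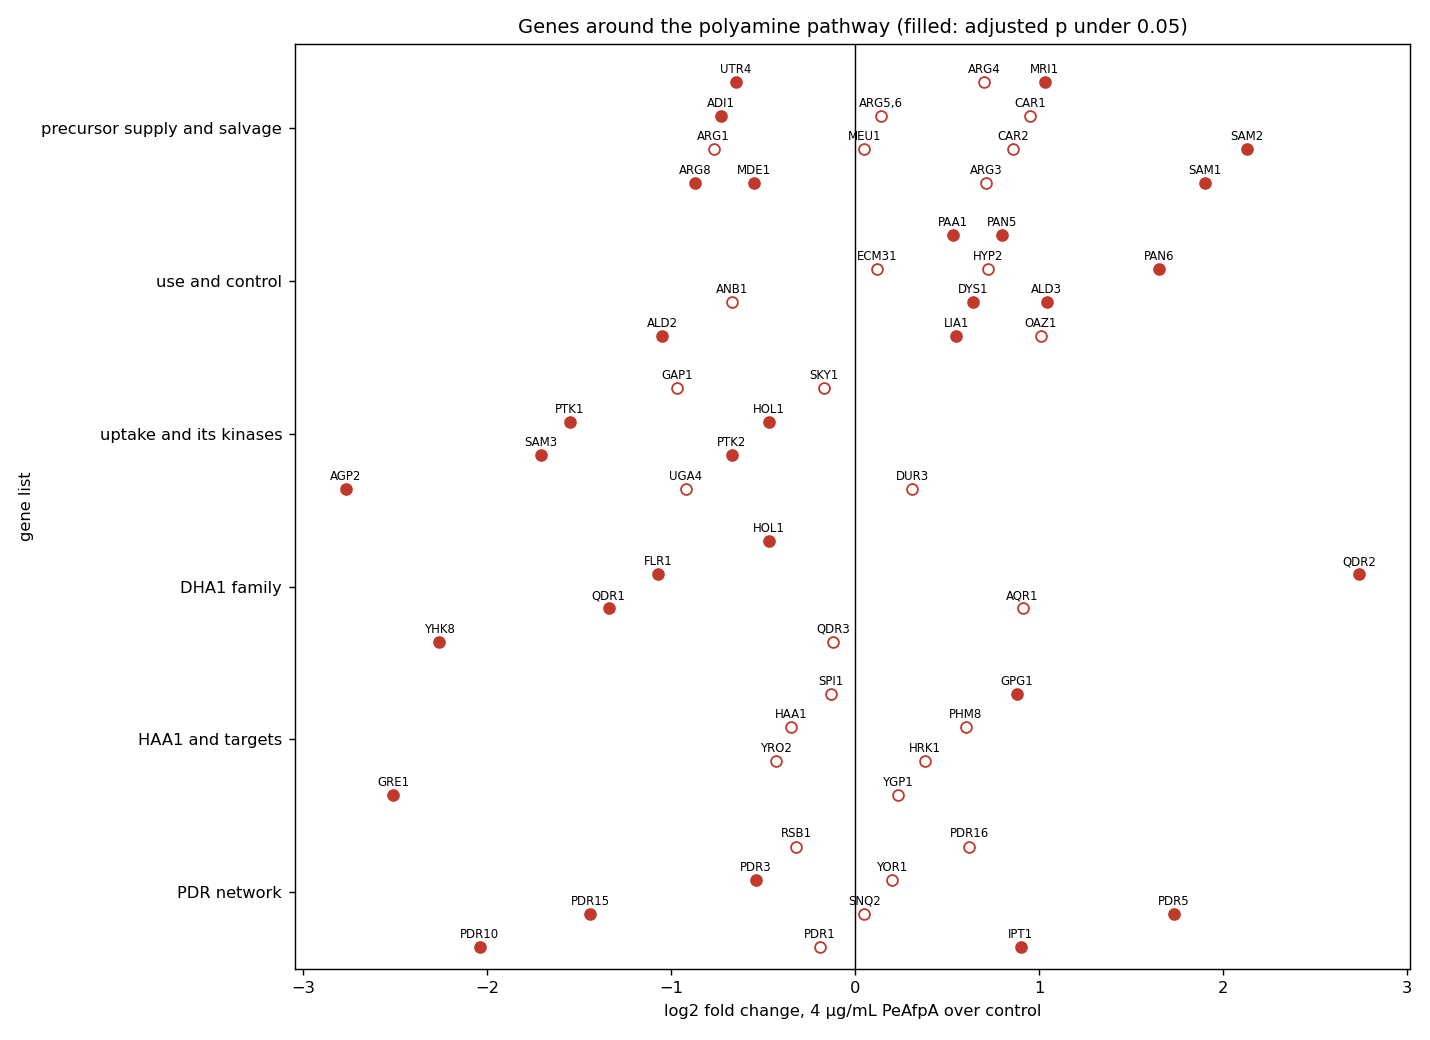
Log2 fold change at 4 µg/mL over control (x axis) of the genes around the polyamine pathway, by list (y axis; the height within a list only separates the labels). Filled points are DEGs and open points are not. Uptake genes lie mostly left of 0, with AGP2 at -2.77, and QDR2 lies farthest right at 2.74.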

How the data were processed

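RNA-seq counts of 12 libraries of BY4741 were used. Per the labels and the methods, single-end reads of 75 bases from unstranded TruSeq libraries were trimmed with Trimmomatic 0.39, mapped with Bowtie2 2.3.2 to build R64 and counted per gene with HTSeq 0.9.0, and the authors deposited these read counts per feature without normalization. Mapped reads are described as uniquely mapped, but how the counting treated strand, overlaps and mapping quality is not given in the sources used here. Reads of TPO2 that match elsewhere could therefore be left out or split. Of 6600 features, 5917 matched the annotation and 683 did not (0.172% to 0.323% of counts).

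Conditions and replicates were taken from the labels. The labels call the source mycelia, although BY4741 grows as yeast cells. The polyamine genes, the context lists and their tests were chosen with earlier results of these data known. Genes with a mean of at least 1 TPM (1 CPM where no length is known) over the 12 libraries were kept. Normalized counts and fits used TMM factors (0.808 to 1.122). The edgeR 4.0.16 quasi-likelihood F test (R 4.3.3) was fitted to 4 conditions, or to a slope on concentration, over all 12 libraries, with Benjamini-Hochberg adjustment over 5903 genes. SE is the absolute log2 fold change over the root of the F statistic, and 95% intervals use the t quantile at the total degrees of freedom of that fit. Replicates are separate flasks, and p-values measure the spread between flasks. The fit was tested on simulated data. A further gene is not reported here.

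Named genes are all 9 polyamine genes, in each list the 3 DEGs with the largest log2 fold changes in each direction, and OAZ1, AGP2, HOL1, HAA1 and PDR1. Likeness of pattern used log2 CPM with a prior count of 2 and names the 5 nearest genes of TPO2 and the 2 nearest of each polyamine DEG. The 21 alternatives were RLE size factors, library size alone, filters of at least 1 count or by filterByExpr, DESeq2 1.42.0, limma-voom (limma 3.58.1) with quality weights, a block for the replicate number, edgeR or DESeq2 with only the 2 groups compared, and each of 12 libraries left out in turn. Sequences are from RefSeq's R64 assembly. Plots used matplotlib 3.10.9 (Python 3.11.15).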

Additional observations from a re-analysis of the deposited data

How the results depend on the processing

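At 4 µg/mL against control, FMS1 and TPO1 were DEGs in all 21 alternatives. With library size as the only scaling these were the 2 DEGs of the 8 genes, both lower, against 1 higher and 2 lower with TMM factors, and the median over all 5903 genes was -0.23, against -0.04 with TMM factors. Leaving out 1 library gave 2 to 6 DEGs at 4 against control (1491 to 2783 of all genes), 1 to 6 at 4 against 2 µg/mL (911 to 2483), 2 to 4 at 4 against 1 µg/mL (591 to 2528), 2 to 5 for the slope (931 to 2736), and 0 at 2 and at 1 µg/mL against control. At 4 against 2 µg/mL there were 2 with library size alone (SPE4, TPO1). limma-voom gave 5 at 4 against control (3477 of all genes), 6 at 4 against 2 µg/mL (3462), 5 at 4 against 1 µg/mL (3637) and 4 for the slope (3215). DESeq2 gave 1 at 1 µg/mL against control (TPO4), where the rest of the 8 had no DESeq2 adjusted p. The cause of these differences was not tested. SPE3 was the one gene whose direction at 4 µg/mL reversed: its log2 fold change was 0.03 with RLE factors, with DESeq2 over 12 libraries or over the 2 groups and with limma-voom, and -0.11 to 0.12 with 1 library left out (0.05 without control replicate 2, 0.03 without control replicate 3, 0.00 without replicate 1 of 1 µg/mL and 0.12 without replicate 1 of 4 µg/mL), with no call in any. The log2 fold change of TPO2 at 4 µg/mL lay between 4.50 and 5.14 with 1 library left out. As TPO2 was chosen for its rise in these same libraries, this describes its values and is not a test.

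The replicate numbers did not pair the libraries: over 18 same-numbered pairs the correlation of deviations from the group means was -0.36 to 0.25, 6 pairs were over 0.1, and 2 libraries correlated best with their own number. With the replicate block, 3 of the 8 genes were DEGs at 4 against control and 2 (SPE1, SPE4) at 4 against 2 µg/mL, and counts in the other comparisons did not move.

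Raw counts of the 9 genes were 108 or more in every library. With 3 flasks per condition, a gene that did not pass the test cannot be called unchanged, and its interval gives the sizes the data allow.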

Other observations

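The genes nearest in pattern to the polyamine DEGs, over the 12 libraries and as the root mean square difference of log2 values, were YNL320W and SAD1, a splicing factor, for SPE4 (0.10 each, with a median of 0.46 over all genes). For FMS1 they were TMT1, a methyltransferase (0.07), and YNL092W (0.10), with a median of 0.52. For TPO1 they were WAR1, the transcription factor of the weak acid response (0.20), and SDS3, a histone deacetylase subunit (0.21), with a median of 0.59. WAR1 had means of 507 normalized counts at 4 µg/mL and 857 in control. The same genes were nearest with a prior count of 0.5.

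GAP1, DUR3 and UGA4, permeases of the uptake list that also carry other nitrogen compounds, were high in replicates 1 and 2 of 2 µg/mL; they were chosen after seeing these values. UGA4 had 9030 and 2089 normalized counts there and 716 in replicate 3, against 490.4, 284 and 279 in control. DUR3 had 9451, 3818 and 1292 at 2 µg/mL, against 846, 573 and 462 in control. None of the 3 passed the test at 2 µg/mL, where edgeR called 0 genes.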
